A study of Arabidopsis thaliana with 8 samples.

Results

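The comparison described here asks what loss of the phytochrome-interacting factors (PIFs) does to the transcriptome of dark-grown Arabidopsis thaliana seedlings in which the brassinosteroid-responsive factor BZR1 is kept active. It sets the 2 libraries of pifq;bzr1-1D against the 2 libraries of bzr1-1D, which are 4 of the 8 libraries of the series, and covers every gene row of the deposited count files. The bzr1-1D line carries a dominant allele of BZR1. The pifq;bzr1-1D line carries that allele together with the quadruple mutant pifq, which lacks PIF1, PIF3, PIF4 and PIF5. The other 4 libraries are from Col-0, the wild type, and from pifq, with 2 each, and give the effect of losing the PIFs without bzr1-1D. No library is shared between these comparisons. All 4 genotypes have the Col-0 ecotype label, and all seedlings were harvested whole after 5 days in darkness on MS medium with BRZ, an inhibitor of brassinosteroid synthesis. BRZ was thus present in all of them. Whether replicate libraries came from separately grown seedlings is not stated in the labels. The p-values therefore rest on the spread between libraries alone, and that spread may be technical. No other allele is named, and each genotype is taken as 1 line.

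PIFs are basic helix-loop-helix transcription factors that accumulate in the dark. They promote elongation of the hypocotyl and closure of the apical hook, and they hold back greening until light-activated phytochromes remove them. BZR1 is the transcription factor at the end of the brassinosteroid pathway, and it activates growth genes while repressing genes of brassinosteroid synthesis. BZR1 and PIF4 are known to bind each other and to share target genes, and their joint action is the subject named in the title of the series.

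Sequencing gave 25.6 and 24.3 M counts in genes (M, mega) for bzr1-1D and 29.5 and 16.1 M for pifq;bzr1-1D. Across all 8 libraries the range was 16.1 to 34.4 M. Among transcripts expected in a dark-grown seedling, PORA was at 3190 and 3200, XTH4 at 337 and 336, PIL1 at 55 and 53.2 and HLS1 at 19.9 and 21.1 CPM in the wild type. Their presence alone does not test the growth condition, as no light-grown seedlings were compared. CPM stands here for counts per M counts of the tested genes, with library sizes scaled by the TMM factors. The 20 most abundant genes took 7.70% of the counts in both bzr1-1D libraries and 12.7% and 11.9% in the pifq;bzr1-1D libraries. Replicates of pifq;bzr1-1D differed from each other more than those of the other genotypes, with a chi-square per gene of 5.50 against 1.72 to 2.47. No pair agreed within sampling noise, so each library counted as 1 sample. In whole seedlings, fewer cells of a type and less RNA per cell cannot be told apart.

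Among the mutated genes, transcripts of PIF1, PIF3 and PIF5 were lower in pifq;bzr1-1D than in bzr1-1D, and those of PIF4 and BZR1 were higher. PIF1 was at 43.6 and 43.4 CPM in bzr1-1D and at 22.1 and 19.3 CPM in pifq;bzr1-1D, a log2 fold change of -1.05 ± 0.06 (SE). Each SE given here is an approximation from the test statistic and can be too small where a genotype has few counts. PIF5 was at 32.5 and 34.9 CPM and then at 22.2 and 19.6 CPM (-0.67 ± 0.07), and PIF3 at 161 and 162 CPM and then at 124 and 123 CPM (-0.38 ± 0.04). PIF4 was at 14.5 and 12.8 CPM in bzr1-1D and at 49.9 and 47.5 CPM in pifq;bzr1-1D, which is 1.84 ± 0.07 higher on the log2 scale. For none of these 4 genes did the genotypes overlap. Counts over a whole gene do not show which part of its transcript was read, so they do not test the loss of the proteins, and the PIF4 counts do not check that label. BZR1 itself was at 40.9 and 42.8 CPM against 47.7 and 49.0 CPM (0.21 ± 0.05, adjusted p = 0.00084 by edgeR's quasi-likelihood test).

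Of 21221 genes tested, 13873 passed an adjusted p of 0.05 in edgeR's quasi-likelihood test, which is 65.4%. Of these, 7167 were higher in pifq;bzr1-1D (33.8% of the genes tested) and 6706 were lower (31.6%). Most of these differences were small. A difference of 2-fold or more was seen in 1438 genes that were higher and 2118 that were lower. At 4-fold or more there were 474 higher and 785 lower genes, and at 16-fold or more 159 and 185. The median log2 fold change of all genes tested was 0.02. Because nearly 1 gene in 3 was called in each direction, counts of called genes in a list are read below against those shares.

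**Figure D1:**
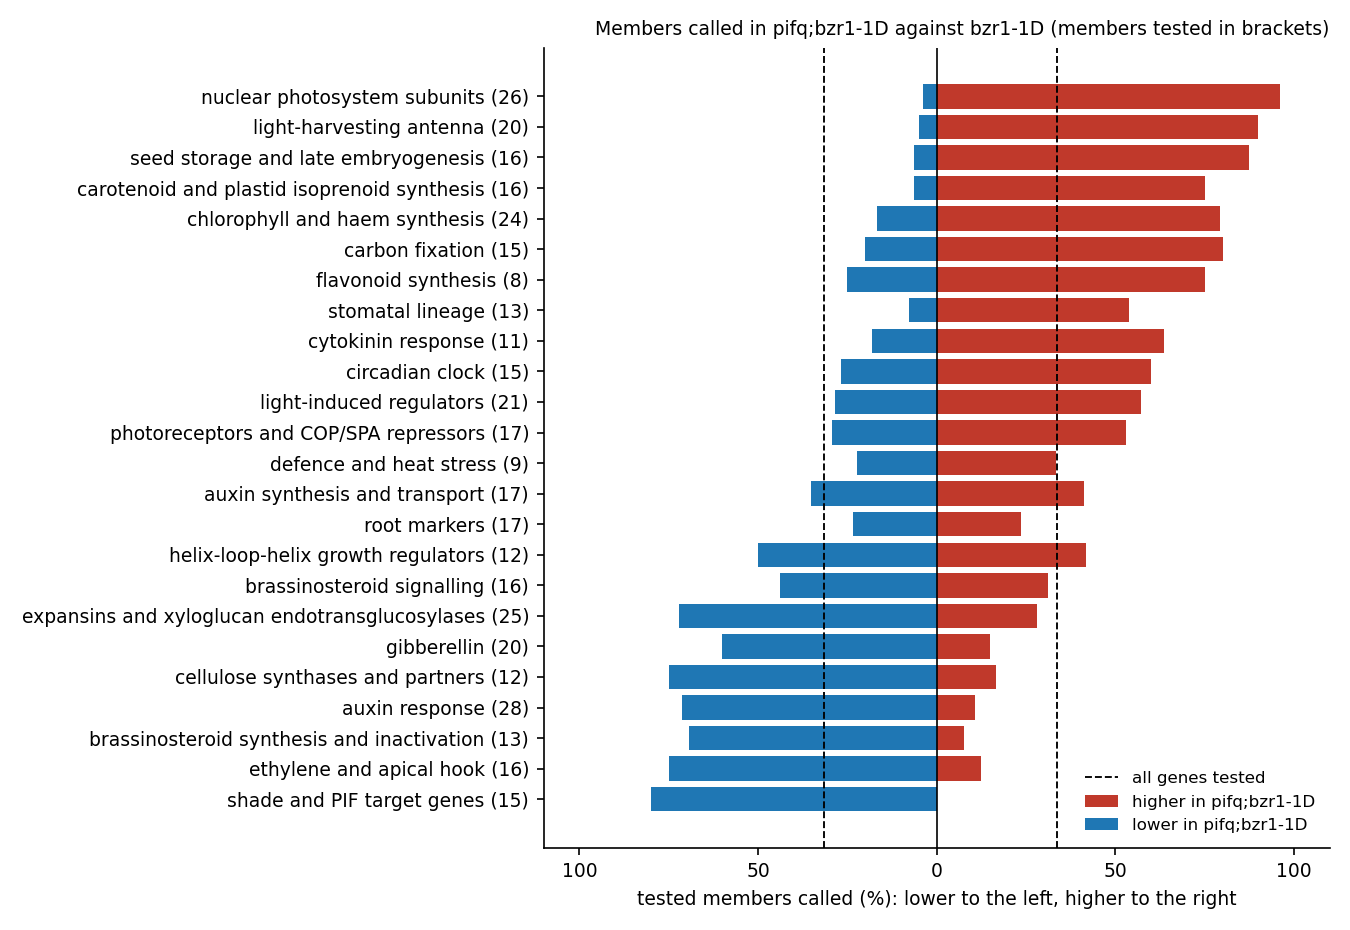
Share of the tested members of each gene list that were called higher (red, to the right) or lower (blue, to the left) in pifq;bzr1-1D than in bzr1-1D, in percent. Dashed lines mark the shares over all genes tested, 33.8% higher and 31.6% lower. Photosynthesis, pigment, cytokinin response, seed storage, flavonoid, clock, stomatal, photoreceptor and light-induced lists have more higher members than these shares. The shade, auxin response, brassinosteroid synthesis, gibberellin, ethylene and cell wall lists have more lower ones. Helix-loop-helix and auxin synthesis lists exceed both shares, and brassinosteroid signalling exceeds the lower share only.

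Light-harvesting and photosystem transcripts were higher without the PIFs. Antenna proteins carry chlorophyll and pass light energy to the photosystems, and 18 of the 20 antenna genes were higher and 1 was lower, with a median log2 fold change of 1.25. LHCB1.4 was at 783 and 763 CPM in bzr1-1D and at 5430 and 5930 CPM in pifq;bzr1-1D (log2 2.88 ± 0.04). LHCA1, an antenna protein of photosystem I, was at 263 and 254 CPM and then at 1040 and 1120 CPM (2.06 ± 0.04). LHCB1.3 went from 10400 CPM in both bzr1-1D libraries to 37400 and 37800 CPM (1.85 ± 0.03). The genotypes stood far apart for all 3 genes, although the LHCB1 genes have near-identical copies and are uncertain one by one. The exceptions were LHCB4.3, which was lower (7.26 and 8.35 CPM against 3.67 and 5.36 CPM), and LHCB2.3, which was at 105 and 102 CPM and at 95.9 and 103 CPM, where the libraries overlap. Without pifq;bzr1-1D replicate 2, LHCB2.3 was called lower (adjusted p = 0.0358 by edgeR).

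Of the 26 nuclear genes for photosystem subunits and their electron carriers, 25 were higher and 1 was lower, with a median of 0.81. PSAH2, a photosystem I subunit, was at 175 and 171 CPM in bzr1-1D and at 443 and 449 CPM in pifq;bzr1-1D (1.36 ± 0.04). PSAO and PSAK, also of photosystem I, had log2 fold changes of 1.15 ± 0.04 each, PSBQ-2 of the oxygen-evolving complex 1.13 ± 0.04 and the ferredoxin gene FD2 1.19 ± 0.04. The gene that was lower was PSBS, whose product serves in the dissipation of excess light energy, at 273 and 264 CPM against 224 and 238 CPM (-0.22 ± 0.04). The 107 chloroplast-encoded genes that could be tested moved with these lists. Of them 89 were higher and 0 were lower, with a median of 1.02, and in pifq against Col-0 the number higher was 89 and the number lower 0. Chloroplast genes took 0.46% and 0.61% of the counts in bzr1-1D and 1.5% and 0.934% in pifq;bzr1-1D. The part of this share in the other results was not tested.

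Genes of carbon fixation were mostly higher. Of 15, 12 were higher and 3 lower, with a median of 0.44. GAPA-2, a subunit of the plastid glyceraldehyde-3-phosphate dehydrogenase, was at 286 and 274 CPM and then at 700 and 705 CPM (1.33 ± 0.04), and GAPA at 1310 and 1260 CPM and then at 2180 and 2160 CPM (0.76 ± 0.04). CP12-1, a regulator of the Calvin cycle, and RPE, an epimerase of that cycle, had log2 fold changes of 0.62 ± 0.04 and 0.51 ± 0.04. The small subunits of Rubisco were split. RBCS1A was higher, with 5090 and 5220 CPM in bzr1-1D and 8600 and 8130 CPM in pifq;bzr1-1D (0.70 ± 0.03), while RBCS1B, RBCS2B and RBCS3B were lower (log2 fold changes of -0.15, -0.27 and -0.16). These 4 genes are close copies of each other, and how multiply mapping reads were counted is not given in the sources used here.

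Most genes of chlorophyll synthesis were higher, and the gene of the enzyme typical of darkness was lower. Of 24 genes of chlorophyll and haem synthesis, 19 were higher and 4 lower, with a median of 0.55. HEMA1, which encodes the first committed enzyme of the pathway, was at 205 and 202 CPM in bzr1-1D and at 575 and 567 CPM in pifq;bzr1-1D (1.49 ± 0.04). GUN4, an activator of magnesium chelatase, CAO, which makes chlorophyll b, and CRD1, a cyclase subunit, were higher by 1.23 ± 0.04, 1.17 ± 0.04 and 1.02 ± 0.04. PORA, the protochlorophyllide oxidoreductase that accumulates in darkness, went the other way, from 2930 and 2890 CPM to 1040 and 1070 CPM (-1.46 ± 0.04). The other lower genes were FC1, a ferrochelatase (-0.45 ± 0.07), HY1, a haem oxygenase (-0.66 ± 0.04), and PORB (-0.10 ± 0.03). The PORB call was lost with upper-quartile scaling, where adjusted p = 0.0874 in edgeR, and without bzr1-1D replicate 2 (0.0542) or pifq;bzr1-1D replicate 1 (0.0784).

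Carotenoid and plastid isoprenoid genes had 12 of 16 higher and 1 lower, with a median of 0.24. PSY, the phytoene synthase that controls entry into carotenoid synthesis, was at 96.0 and 92.6 CPM and then at 174 and 169 CPM (0.87 ± 0.04). ZEP and NPQ1, which interconvert xanthophylls, had log2 fold changes of 0.58 ± 0.05 and 0.55 ± 0.06, and DXR and DXS of the plastid isoprenoid pathway 0.48 ± 0.04 and 0.44 ± 0.04. Regulators that light induces were more mixed, with 12 of 21 higher and 6 lower and a median of 0.28. RPT2, a signalling partner of the phototropins, was at 59.2 and 58.6 CPM and then at 290 and 285 CPM (2.29 ± 0.04). SIG1, a sigma factor of the plastid polymerase, GLK2, an activator of antenna genes, and BBX4, a B-box protein of light signalling, were higher by 1.25 ± 0.04, 1.08 ± 0.05 and 0.85 ± 0.04. HEC2, a helix-loop-helix protein that interacts with PIF1, was lower, at 33.3 and 31.7 CPM against 4.64 and 4.58 CPM (-2.81 ± 0.09).

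Photoreceptors and repressors of light responses, which form 1 list, were also divided, with 9 of 17 higher, 5 lower and a median of 0.11. PHOT1, the blue-light receptor of phototropism, was at 595 and 596 CPM in bzr1-1D and at 243 and 253 CPM in pifq;bzr1-1D (-1.27 ± 0.04). PHYA and PHYB, the main phytochromes, were lower (-0.69 ± 0.04 and -0.89 ± 0.04), while PHOT2 and SPA1 were higher (0.66 ± 0.04 and 0.73 ± 0.07).

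**Figure D2:**
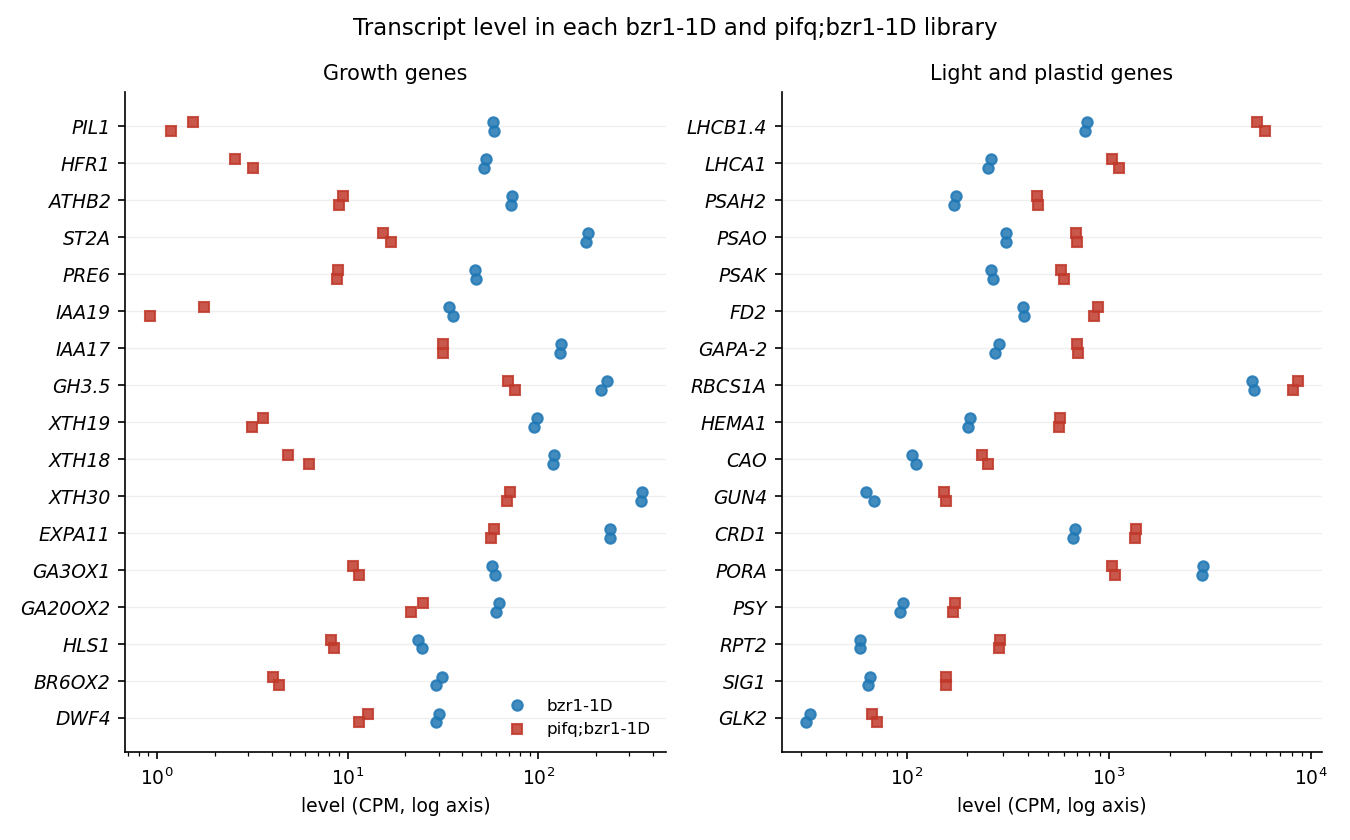
Level of selected genes in each bzr1-1D library (blue circles) and each pifq;bzr1-1D library (red squares), in CPM on a log axis, with growth genes on the left and light and plastid genes on the right. In every gene shown the genotypes are separate: all growth genes and PORA are lower in pifq;bzr1-1D, and the other light and plastid genes are higher.

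Known targets of the PIFs and of shade signalling were lower. Of the 15 that could be tested, 12 were lower and 0 higher, with a median log2 fold change of -2.12. PIL1, a PIF-like helix-loop-helix gene, was at 57.7 and 58.8 CPM in bzr1-1D and at 1.55 and 1.18 CPM in pifq;bzr1-1D, 41.0-fold lower (-5.36 ± 0.10). HFR1, an inhibitor of PIF binding to DNA, was at 53.2 and 51.8 CPM and then at 2.55 and 3.2 CPM (-4.23 ± 0.09). ST2A, a sulfotransferase of jasmonate metabolism, was at 183 and 177 CPM and then at 15.3 and 16.9 CPM (-3.50 ± 0.05). ATHB2, a homeodomain factor of shade growth, was at 72.5 and 71.7 CPM and then at 9.5 and 9.02 CPM (-2.95 ± 0.06), and PIL2 was lower as well (-2.75 ± 0.07). In pifq, where the bzr1-1D allele is absent, PIL1 was at 1.91 and 1.76 CPM and ATHB2 at 8.29 and 8.22 CPM. The 3 members not called were the homeodomain genes HAT1, HAT2 and HAT3, with log2 fold changes of -0.15, -0.07 and -0.16. HAT3 passed the test under some other settings, with adjusted p = 0.0344 by edgeR with RLE factors.

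Helix-loop-helix growth regulators were split, with 5 of 12 higher (41.7%, against 33.8% of all genes tested) and 6 lower (50%, against 31.6%) and a median of -0.04. PRE6, a small helix-loop-helix protein that frees growth-promoting factors from their inhibitors, was at 46.8 and 47.1 CPM in bzr1-1D and at 8.92 and 8.76 CPM in pifq;bzr1-1D (-2.40 ± 0.07). PRE5 was lower as well (-3.12 ± 0.30), at 3.02 and 3.15 CPM against 0.288 and 0.458 CPM. BEE1, a brassinosteroid-induced gene, and BIM1, a partner of BES1, were lower too (-1.31 ± 0.07 and -0.65 ± 0.04). IBH1, an inhibitor of cell elongation, was at 36.1 CPM in both bzr1-1D libraries and at 1.76 and 4.12 CPM in pifq;bzr1-1D (-3.79 ± 0.13). It lies 4 tested genes from the mutated PIF4 gene. Among the higher members PIF7, a PIF that the pifq line does not lack, was at 0.267 and 0.202 CPM and then at 1.98 and 1.77 CPM (2.99 ± 0.36). PRE1 was not called, at 0.382 and 0.605 CPM against 0.468 and 1.18 CPM.

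Auxin response genes were lower in most cases. Of 28, 20 were lower and 3 higher, with a median of -0.58. IAA19, an auxin-induced repressor of auxin response with a known part in hypocotyl growth, was at 34 and 35.8 CPM in bzr1-1D and at 1.76 and 0.915 CPM in pifq;bzr1-1D (-4.57 ± 0.13). IAA17 was at 132 and 130 CPM and then at 31.8 and 31.6 CPM (-2.04 ± 0.05), and IAA29 at 21.7 and 20.2 CPM and then at 4.28 and 4.84 CPM (-2.22 ± 0.10). SAUR9, of the small auxin-up RNA family, was at 27.5 and 25.0 CPM and then at 4.53 and 5.30 CPM (-2.45 ± 0.10). GH3.5, which conjugates auxin to amino acids, was at 229 and 214 CPM and then at 69.5 and 75.8 CPM (-1.62 ± 0.04). All 5 were separate between the genotypes. In Col-0, IAA19 was at 5.72 and 5.07 CPM and SAUR9 at 2.93 and 3.34 CPM, so bzr1-1D was the highest of the 4 genotypes for both.

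Genes of auxin synthesis and transport were called about as often as all genes. Of 17, 7 were higher (41.2%, against 33.8% of all genes tested) and 6 lower (35.3%, against 31.6%), with a median of 0.14. YUC8, a flavin monooxygenase that makes auxin, was at 18.9 and 18.7 CPM and then at 6.84 and 6.6 CPM (-1.48 ± 0.10). The auxin transporters ABCB19, LAX3 and AUX1 were lower with log2 fold changes of -0.78 ± 0.04, -0.53 ± 0.04 and -0.47 ± 0.04. CYP79B2, which converts tryptophan to indole-3-acetaldoxime, was higher, at 4.32 and 4.76 CPM and then at 18.0 and 17.2 CPM (1.96 ± 0.10).

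Cell wall loosening genes were lower more often than higher. Expansins loosen the wall and xyloglucan endotransglucosylases (XTH) cut and rejoin its xyloglucan, and of 25 genes 18 were lower and 7 higher, with a median of -1.12. XTH19 was at 98.5 and 94.6 CPM in bzr1-1D and at 3.6 and 3.14 CPM in pifq;bzr1-1D, 28.1-fold lower (-4.81 ± 0.08). XTH18 was at 121 and 119 CPM and then at 4.86 and 6.28 CPM (-4.48 ± 0.07). Both are close copies of XTH17 and uncertain one by one. XTH30 was at 348 and 346 CPM and then at 70.7 and 68.5 CPM (-2.31 ± 0.04), XTH15 at 5090 CPM in both libraries and then at 1310 and 1340 CPM (-1.94 ± 0.04), and EXPA11 at 237 CPM in both and then at 58.9 and 56.8 CPM (-2.03 ± 0.04). Of 12 genes for cellulose synthases and their partners, 9 were lower and 2 higher, with a median of -0.28. CTL2, a chitinase-like protein of secondary walls, was lower (-1.93 ± 0.15), as were the secondary-wall cellulose synthases CESA7 (-1.12 ± 0.11) and CESA4 (-0.77 ± 0.08). COB and CSI1, which guide cellulose deposition, had smaller differences of -0.64 ± 0.04 and -0.30 ± 0.04.

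Gibberellin and ethylene genes were lower in most cases as well. Of 20 gibberellin genes 12 were lower and 3 higher, with a median of -0.58. GA3OX1, the enzyme that makes bioactive gibberellin, was at 57.2 and 59.6 CPM in bzr1-1D and at 10.7 and 11.4 CPM in pifq;bzr1-1D (-2.42 ± 0.07), and GA20OX2, which acts before it, at 61.9 and 60.3 CPM and then at 24.8 and 21.6 CPM (-1.38 ± 0.06). The gibberellin-responsive genes GASA1 and GASA4 were lower (-1.55 ± 0.04 and -2.10 ± 0.08), while GASA6 was higher, at 37.5 and 35.8 CPM and then at 76.8 and 77.4 CPM (1.07 ± 0.05). Of 16 genes of ethylene and the apical hook, 12 were lower and 2 higher, with a median of -0.38. HLS1, needed for the hook to form, was at 23.4 and 24.6 CPM and then at 8.17 and 8.50 CPM (-1.53 ± 0.09). EIN2, the membrane protein that relays the ethylene signal, and EBF1, which targets EIN3 for degradation, were lower by smaller amounts (-0.47 ± 0.04 and -0.44 ± 0.04). ACO4, an ACC oxidase of ethylene synthesis, was higher (1.17 ± 0.04).

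Most genes of brassinosteroid synthesis, several of which BZR1 is known to repress, were lower in pifq;bzr1-1D than in bzr1-1D. Of 13 genes of synthesis and inactivation, 9 were lower and 1 higher, with a median of -0.63. BR6OX2, which catalyses the last step to brassinolide, was at 31.3 and 29.2 CPM in bzr1-1D and at 4.03 and 4.38 CPM in pifq;bzr1-1D (-2.86 ± 0.09). DWF4, the rate-limiting hydroxylase, was at 30.1 and 28.9 CPM and then at 12.8 and 11.5 CPM (-1.26 ± 0.07). ROT3 was at 66.7 and 65.1 CPM and then at 28.0 and 27.9 CPM (-1.24 ± 0.05), and DWF7 was lower (-0.67 ± 0.07). SOB7, which inactivates brassinosteroids, was at 62.5 and 62.6 CPM and then at 26.6 and 27.1 CPM (-1.22 ± 0.06). CPD, DET2 and DWF5 were not called, with CPD at 306 and 304 CPM against 297 and 306 CPM. The 1 gene that was higher, DWF1 (0.09 ± 0.04), lost its call under RLE scaling (adjusted p = 0.0718 by edgeR) and when either library of bzr1-1D (0.0501 and 0.137) or replicate 2 of pifq;bzr1-1D (0.178) was left out. Of 16 signalling genes 5 were higher (31.2%, against 33.8% of all genes tested) and 7 lower (43.8%, against 31.6%), with a median of -0.08. BES1, the closest relative of BZR1, was at 45.1 and 44.4 CPM and then at 115 and 116 CPM (1.37 ± 0.04). The receptor genes BRI1 and BAK1 were lower (-0.34 ± 0.04 and -0.41 ± 0.04) and the receptor kinase substrate BSK1 was higher (0.30 ± 0.04).

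Cytokinin response genes were higher in 7 of 11 cases and lower in 2, with a median of 1.18. The type-A response regulators are induced by cytokinin. ARR4 was at 22.8 and 23.4 CPM and then at 57.5 and 58.1 CPM (1.32 ± 0.05), ARR6 at 3.28 and 3.15 CPM and then at 12.4 and 11.8 CPM (1.92 ± 0.12), and ARR16 at 0.535 and 0.565 CPM and then at 5.65 and 5.82 CPM (3.37 ± 0.23). ARR9 was higher by 1.04 ± 0.06. ARR8 was lower, at 40.9 and 40.4 CPM against 20 and 21.0 CPM (-1.0 ± 0.06). In the circadian clock 9 of 15 genes were higher and 4 lower, with a median of 0.16. TOC1 and LUX, of the evening part of the clock, and CHE, a repressor of CCA1, were higher by 0.64 ± 0.04, 0.77 ± 0.04 and 0.66 ± 0.07. PRR3 and GI were lower (-0.87 ± 0.06 and -0.56 ± 0.05). All seedlings were 5 days old, and the time of day of the harvest is not given in the sources used here.

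Flavonoid genes had 6 of 8 tested members higher and 2 lower, with a median of 0.74. TT4, chalcone synthase, was at 2.29 and 2.70 CPM in bzr1-1D and at 5.11 and 7.65 CPM in pifq;bzr1-1D (1.27 ± 0.17). UGT78D1, a flavonol glycosyltransferase, was higher by 1.09 ± 0.14 and TT5, chalcone isomerase, by 0.97 ± 0.15, while TT7, a flavonoid hydroxylase, was lower (-1.62 ± 0.20). MYB75, an activator of anthocyanin synthesis, was lower as well, at 2.67 and 2.22 CPM against 0.252 and 0 CPM (-3.88 ± 0.41). Levels of all 5 were under 8 CPM in these libraries, although TT4 reached 140 and 133 CPM in pifq.

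Stomatal lineage genes were called higher more often (53.8%) than all genes tested (33.8%). Root markers (23.5% higher, 23.5% lower) and defence and heat-stress genes (33.3% and 22.2%) were not called more often than all genes (33.8% and 31.6%). Of 13 stomatal lineage genes 7 were higher and 1 lower, with a median of 0.53, and their summed level was 127 to 131 CPM in bzr1-1D and 166 to 168 CPM in pifq;bzr1-1D. SPCH, which starts the lineage, was at 1.95 and 1.77 CPM and then at 4.93 and 4.64 CPM (1.37 ± 0.17). FMA, needed for guard cell fate, was higher by 0.94 ± 0.11, TMM, a receptor-like protein, by 0.81 ± 0.10, ERL2 by 0.53 ± 0.08 and SCRM, the partner of SPCH, by 0.40 ± 0.05. The 1 lower member, SDD1, lost its call with DESeq2 (adjusted p = 0.105) and without either library of pifq;bzr1-1D (adjusted p = 0.108 and 0.0523 by edgeR). Of 17 root markers 4 were higher and 4 lower, with a median of -0.29 that became 0, 0.75 and 0.07 without bzr1-1D replicate 1, without its replicate 2 and without pifq;bzr1-1D replicate 1, and the list summed to 137 to 145 CPM in bzr1-1D and 106 to 111 CPM in pifq;bzr1-1D. Its COBL9 was at 0 in both pifq;bzr1-1D libraries and its EXPA18 at 0 in both bzr1-1D libraries. The 9 tested defence and heat-stress genes had 3 higher and 2 lower members, with a median of 0.14. PR1 was higher, at 0.687 and 0.282 CPM against 2.70 and 2.81 CPM, and WRKY33 was higher by 0.73 ± 0.07 and HSP90.1 by 0.38 ± 0.12, while WRKY70 and NPR1 were lower (-0.91 ± 0.15 and -0.22 ± 0.06). Without pifq;bzr1-1D replicate 1, NPR1 and HSP90.1 lost their calls (adjusted p = 0.126 and 0.104 by edgeR). The part of other cell types in the results above was not tested.

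Among the root markers the largest difference was that of IRT1. IRT1, the iron transporter of the root surface, was at 0.153 and 0.121 CPM in bzr1-1D and at 21.7 and 20.5 CPM in pifq;bzr1-1D (7.22 ± 0.20). FRO2, the ferric reductase that supplies it, was at 1.87 and 1.65 CPM and then at 8.38 and 8.04 CPM (2.22 ± 0.15). In Col-0 IRT1 was at 0.112 and 0.235 CPM and in pifq at 30.1 and 29.9 CPM, so both genotypes without the PIFs were high and both with them were low. IRT1 is on chromosome 4, and whether part of this chromosome differs between the lines was not tested. LRX2, a wall protein of root hairs, was lower (-4.75 ± 0.13), at 31.5 and 36.1 CPM against 1.3 and 1.18 CPM. SCR and PHT1;4 were lower by smaller amounts (-0.54 ± 0.05 and -0.67 ± 0.11).

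Most listed seed storage genes were higher in pifq;bzr1-1D than in bzr1-1D, and their summed level in bzr1-1D was the lowest of the 4 genotypes. Of 16 storage and late embryogenesis genes 14 were higher and 1 lower, with a median of 4.47. The oleosin gene OLEO3, which is outside the list and is given below, went the other way (-5.52 ± 0.16). CRU3, a cruciferin storage protein, was at 0.611 and 0.484 CPM in bzr1-1D and at 44.1 and 40.5 CPM in pifq;bzr1-1D (6.27 ± 0.13), but at 85.9 and 83.3 CPM in Col-0 and at 15.5 and 16 CPM in pifq. CRA1, another cruciferin, was at 0.687 and 0.726 CPM and then at 16.4 and 16.2 CPM (4.52 ± 0.15), with 80.4 and 80.0 CPM in Col-0. M17, of the late embryogenesis group, and SESA5, an albumin with close copies, were higher by 4.94 ± 0.21 and 4.43 ± 0.19. SESA2 was at 0 in both bzr1-1D libraries and at 3.89 and 3.27 CPM in pifq;bzr1-1D, so no fold is given for it. The list summed to 5.28 to 5.35 CPM in bzr1-1D, 107 to 110 CPM in pifq;bzr1-1D, 205 to 206 CPM in Col-0 and 52.5 to 54.2 CPM in pifq. The member that was lower, LEA4-5, lost its call with DESeq2 (adjusted p = 0.069) and without bzr1-1D replicate 1 (adjusted p = 0.146 by edgeR), and without pifq;bzr1-1D replicate 2.

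Many of the largest differences had the same form, with bzr1-1D apart from the 3 other genotypes. AT1G20390 was at 4.35 and 1.49 CPM in bzr1-1D and at 512 and 546 CPM in pifq;bzr1-1D, with 503 and 481 CPM in Col-0 and 342 and 344 CPM in pifq. AT1G35115, AT2G15650, AT1G50810 and AT5G56380 also had bzr1-1D lowest, each under 1 CPM in bzr1-1D and above 13 CPM elsewhere. In the other direction AT1G24370 was at 38.2 and 38.3 CPM in bzr1-1D and under 0.2 CPM in every other library. AT1G10110 was at 16.8 and 17.5 CPM and AGP22, an arabinogalactan protein, at 57.6 and 55.8 CPM in bzr1-1D, against at most 0.329 and 4.32 CPM elsewhere.

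This form was counted over all genes with a difference of 4-fold or more, with 0.1 CPM added before ratios. Of the 474 genes that were higher in pifq;bzr1-1D, 108 (22.8%) had bzr1-1D alone at least 4-fold below each of the other genotypes. Of these 108, 84.3% were on chromosomes 1 and 5, which hold 49.5% of the nuclear genes tested. Of the 785 lower genes, 179 (22.8%) had bzr1-1D alone at least 4-fold above the others, and 66.5% of them were on chromosomes 1 and 5. Among differences of 16-fold or more the form held for 75 of 159 higher genes (47.2%) and 81 of 185 lower genes (43.8%). On chromosomes 2, 3 and 4 alone, 64.3% of the genes tested were called, against 65.4% over the whole genome. Most calls are of small differences, so this share does not show how the large ones depend on the chromosome. Whether the bzr1-1D plants and the pifq;bzr1-1D plants differ elsewhere in their genomes was not tested.

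**Figure D3:**
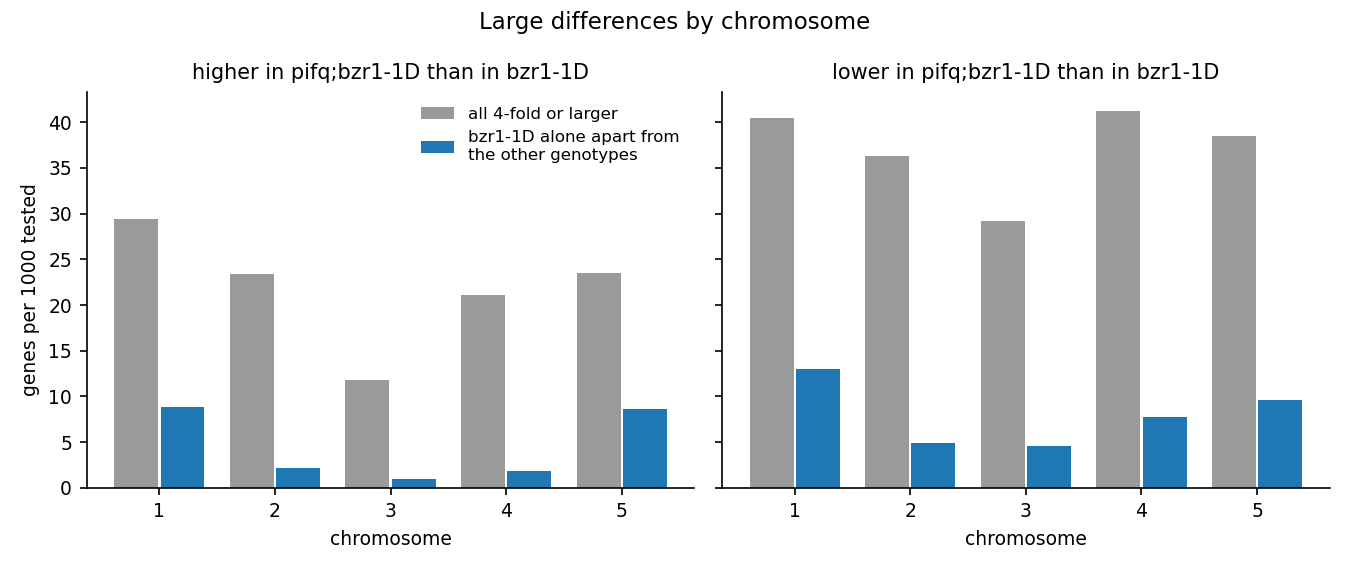
Genes with a difference of 4-fold or more per 1000 genes tested on each chromosome, for genes higher (left) and lower (right) in pifq;bzr1-1D. Grey bars show all such genes and blue bars those in which bzr1-1D alone stood 4-fold or more apart. Among higher genes the blue bars reach 8.85 and 8.60 on chromosomes 1 and 5 and 0.96 to 2.16 on the others. The contrast is weaker among lower genes, with 13.0 and 9.62 on chromosomes 1 and 5 and 4.56 to 7.75 on the others.

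Large differences also lay near PIF4. Within 30 tested genes on either side of it, 8 genes were at least 4-fold lower in pifq;bzr1-1D than in bzr1-1D, and 8 were at least 4-fold lower in pifq than in Col-0. For PIF1, PIF3, PIF5 and BZR1 the number at least 4-fold lower in pifq;bzr1-1D was 0, 4, 1 and 0. The 5 neighbouring genes 20 to 24 places before PIF4 were under 1 CPM in every library without the PIFs. Among them CSY3, a citrate synthase of peroxisomes, was at 97.7 and 99.1 CPM in bzr1-1D and at 0.324 and 0.523 CPM in pifq;bzr1-1D (-7.94 ± 0.13), and AT2G42750 at 53.8 and 56.4 CPM and then at 0.108 and 0.262 CPM (-8.36 ± 0.15). AT2G42170, on the same chromosome but outside this window, was at 103 CPM in both and then at 1.4 and 1.5 CPM (-6.15 ± 0.09). IBH1 was 4 places after PIF4. Loss of the PIF proteins and a change in this part of chromosome 2 that came with the mutant line cannot be told apart for these genes.

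Outside that region, genes with large differences in the same direction with and without bzr1-1D included AT4G13495 and AT4G13575. AT4G13495 was at 12 and 11.3 CPM in bzr1-1D and at 286 and 274 CPM in pifq;bzr1-1D (4.59 ± 0.05). AT4G13575 was at 0.458 and 0.403 CPM and then at 35.1 and 38.6 CPM (6.39 ± 0.15). Both are on chromosome 4, which holds 3224 of the 21221 genes tested. Of the 59 genes at least 16-fold higher here and at least 2-fold higher in pifq than in Col-0, 24 were on chromosome 4. Whether part of this chromosome differs between the lines was not tested. CRK30, a cysteine-rich receptor-like kinase also on chromosome 4, was at 0.306 and 0.444 CPM and then at 11.3 and 11.6 CPM (4.92 ± 0.20). On the lower side were CER1, an enzyme of wax alkane synthesis, at 46.9 and 47.2 CPM and then at 0.935 and 1.05 CPM (-5.59 ± 0.12), OCT1, an organic cation transporter, at 57.1 and 53.5 CPM and then at 2.52 and 3.53 CPM (-4.26 ± 0.10), and AT5G57670, at 100 and 97.3 CPM and then at 1.91 and 2.94 CPM (-5.44 ± 0.09). OLEO3, an oleosin gene, was at 29.4 and 28.6 CPM and then at 0.432 and 0.981 CPM (-5.52 ± 0.16). In all of these the libraries of each genotype lay close together beside the gap between genotypes.

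The effect of losing the PIFs was then set against the same loss without bzr1-1D, in pifq and Col-0, where 62.5% of the genes tested were called, 32% higher and 30.5% lower. Of the 7167 genes higher in pifq;bzr1-1D than in bzr1-1D, 4262 were also higher in pifq than in Col-0, which is 59.5% of the first list and 62.8% of the second. Of the 6706 lower genes, 3877 were lower in both, 57.8% and 59.8% of the lists. Opposite calls were made for 1074 (15%) of the higher and 605 (9.02%) of the lower genes. Across the 21221 genes the effects had a Pearson r of 0.546 and a Spearman rho of 0.538, given as a description because genes are not independent replicates. The difference between the effects was itself tested as the interaction term of the same fit, and 10363 genes passed (48.8%). The difference is the effect with bzr1-1D minus that without it, and it was above 0 in 21.9% and below 0 in 26.9% of the genes tested.

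**Figure D4:**
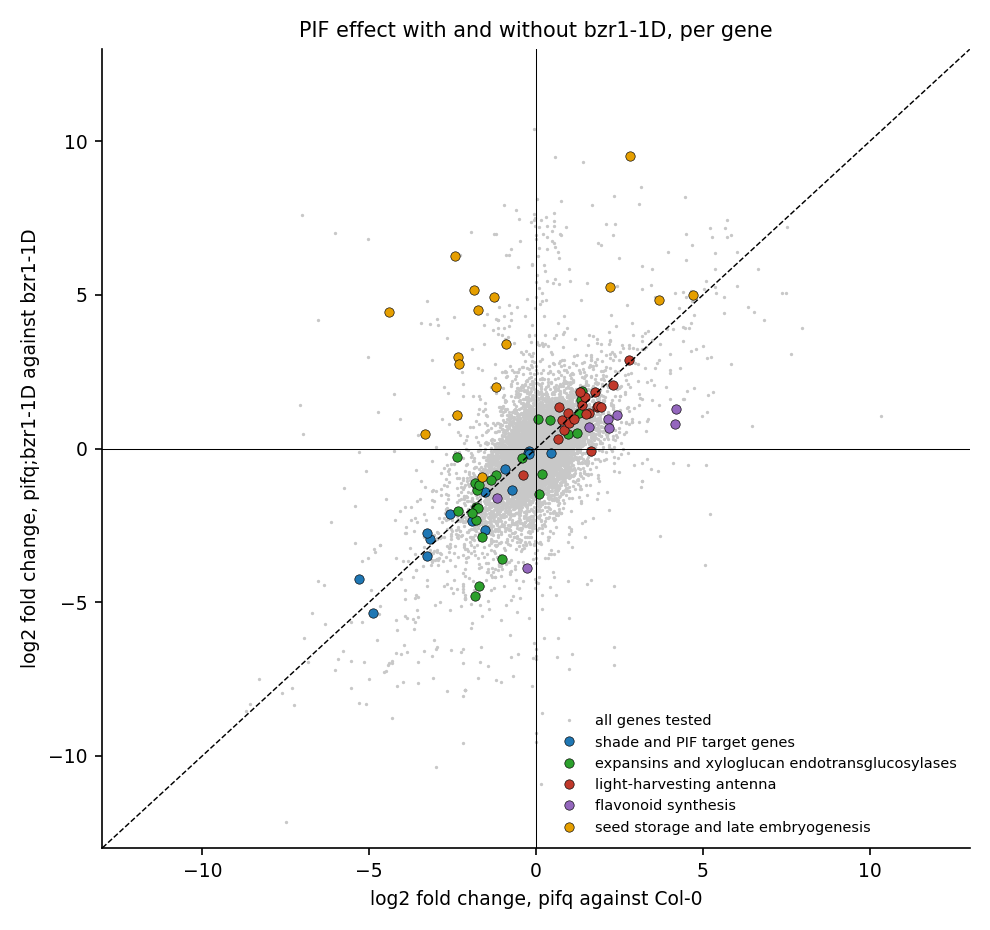
Log2 fold change of each gene in pifq against Col-0 (horizontal) and in pifq;bzr1-1D against bzr1-1D (vertical), with members of 5 lists coloured. The dashed line marks equal effects; most antenna and shade genes lie near it, most flavonoid genes lie below it on the right, and most seed storage genes lie far above it, where the topmost point, SESA2, is a fitted value against 0 counts.

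For several hormone and growth genes the difference between genotypes without and with the PIFs was larger when bzr1-1D was present. GA3OX1, IAA19, XTH19, XTH18, PRE6 and BEE1 were highest in bzr1-1D among the 4 genotypes. Whether this comes from the allele or from another difference of that line was not tested. BR6OX2 was at 346 and 345 CPM in Col-0 and at 287 and 283 CPM in pifq, a log2 fold change of -0.28, and the effect with bzr1-1D minus that without it was -2.59 ± 0.10. For DWF4 the effects were -0.15 and -1.26 (difference of -1.11 ± 0.08). GA3OX1 was at 30.9 and 29.2 CPM in Col-0 and at 27.7 CPM in both pifq libraries, and its effects differed by -2.29 ± 0.09. IAA19, XTH19 and XTH18 were lower without the PIFs in both settings, with effects of -2.19, -1.84 and -1.70 without bzr1-1D and differences of -2.39 ± 0.30, -2.97 ± 0.15 and -2.78 ± 0.19. For PRE6 and BEE1 the differences were -0.67 ± 0.12 and -0.88 ± 0.10. PIL1, ATHB2, GH3.5, GASA1 and HLS1, in contrast, had differences of -0.48, 0.24, -0.12, -0.07 and 0.01, none of which passed the test (adjusted p of 0.0536 to 0.982 by edgeR).

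Other genes were higher without the PIFs in bzr1-1D and had effects nearer to 0 in the wild-type background. BES1 had effects of 1.37 with bzr1-1D and 0.21 without it (difference of 1.16 ± 0.06). ACO4 was at 318 and 327 CPM in Col-0 and at 301 and 298 CPM in pifq, and its effects differed by 1.28 ± 0.05. TOC1, LUX and CHE had effects of -0.04, 0.10 and 0.03 without bzr1-1D, none of them called, and differences of 0.68 ± 0.05, 0.67 ± 0.06 and 0.63 ± 0.11. ARR4, ARR9 and ARR16 were higher in both settings and more so with bzr1-1D (differences of 0.54 ± 0.07, 0.73 ± 0.08 and 1.82 ± 0.35). So were RPT2, HEMA1 and SIG1, with differences of 0.87 ± 0.06, 0.70 ± 0.05 and 0.52 ± 0.06.

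A further group rose without the PIFs in the wild-type background and less so, or not at all, in bzr1-1D. TT4 was at 7.50 and 7.61 CPM in Col-0 and at 140 and 133 CPM in pifq, an effect of 4.18, against 1.27 with bzr1-1D (difference of -2.91 ± 0.21). UGT78D1 and TT5 had differences of -1.34 ± 0.17 and -1.17 ± 0.20, and FRO2 of -1.21 ± 0.23. LHCB2.3 was at 51.6 and 53.1 CPM in Col-0 and at 166 and 163 CPM in pifq, while no difference was called with bzr1-1D (difference of -1.72 ± 0.06). RBCS1B, RBCS2B, RBCS3B and PSBS were higher in pifq than in Col-0 (0.77, 0.53, 0.62 and 0.64) and lower in pifq;bzr1-1D than in bzr1-1D. PHT1;4, a phosphate transporter, was higher by 0.76 in the first comparison and lower in the second (difference of -1.43 ± 0.14). Of the 26 photosystem genes, 17 had a difference below 0 and 2 above 0 that passed, and of the 24 chlorophyll and haem genes 15 and 5. Of the 20 antenna genes 10 were below 0 and 5 above 0. Among them LHCB1.3 and LHCB1.1 had differences of 0.54 ± 0.05 and 0.20 ± 0.05 and LHCA1 of -0.25 ± 0.06, and those of LHCB1.4 and LHCB1.5 (0.09 and 0.08) did not pass.

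**Figure D5:**
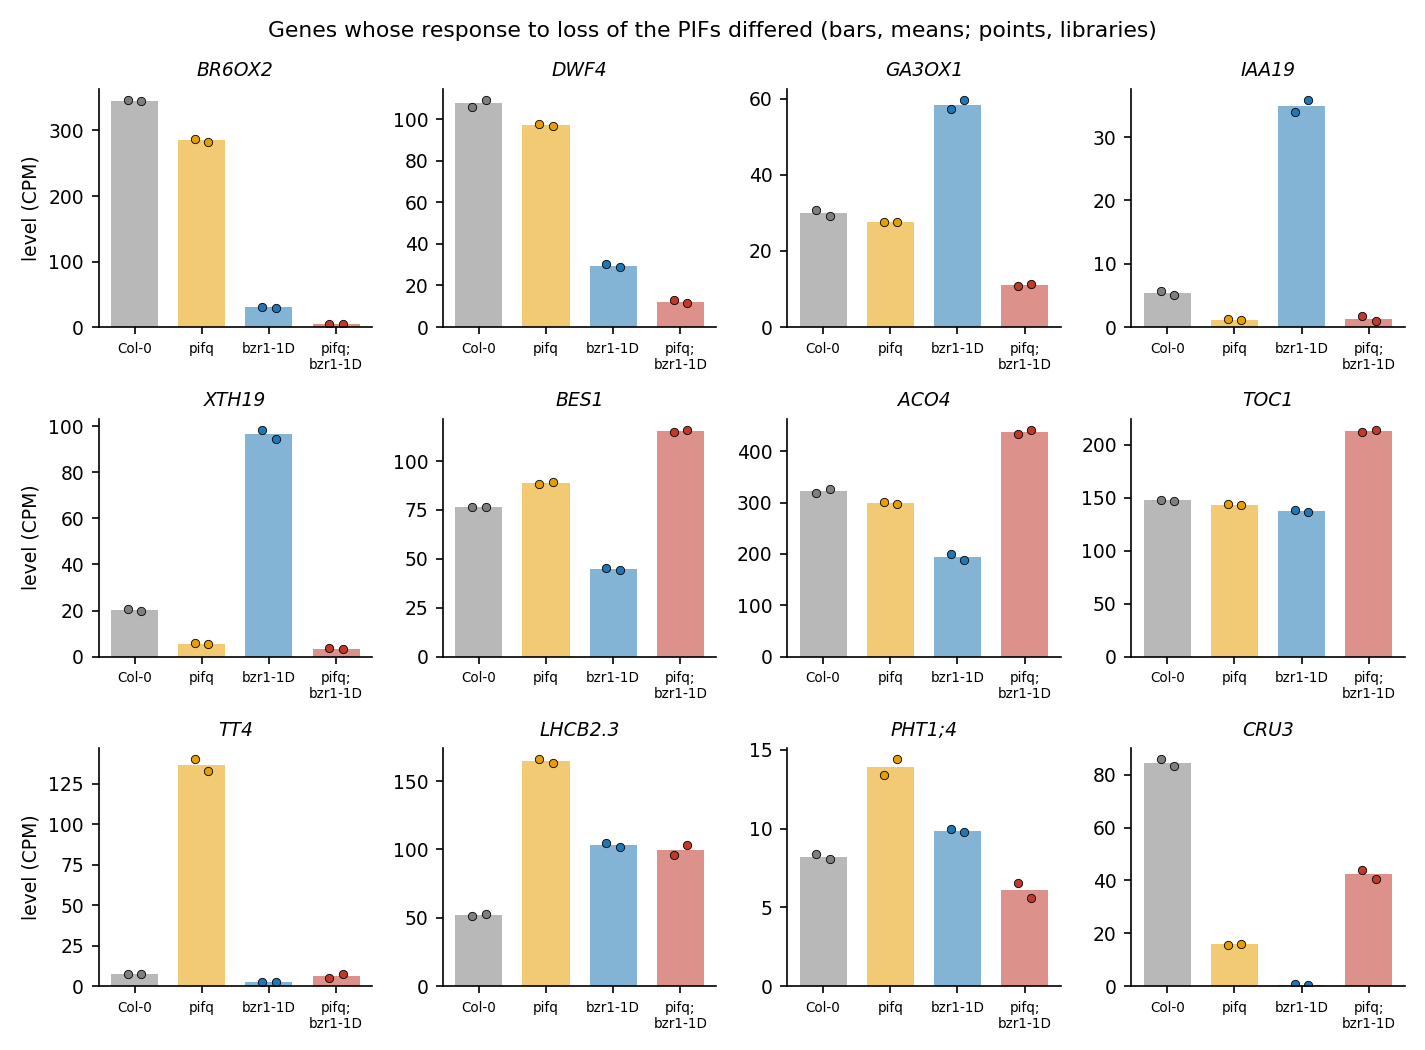
Level of selected genes in the 4 genotypes, in CPM, with bars for the mean of 2 libraries and points for the libraries; each panel has its own axis from 0. BR6OX2 and DWF4 are low in both bzr1-1D genotypes and lowest in pifq;bzr1-1D, GA3OX1, IAA19 and XTH19 are high in bzr1-1D alone, and TT4 is high in pifq alone.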

How the data were processed

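RNA was sequenced from 8 libraries, 2 for each of 4 genotypes, and genotypes were taken from the sample titles. The authors deposited whole-number counts of reads per gene. The submitters' processing notes name TopHat, HTSeq and TAIR9. Tool versions, strand use and the handling of multiply mapping reads are not stated there, so close copies, overlapping genes and antisense genes are uncertain. Reads outside genes (2.68% to 4.27%) and ambiguous reads (1.95% to 2.08%) stayed out of library sizes. Names and gene order came from the TAIR10.1 annotation rather than from TAIR9, and chromosomes were read from the gene codes. No coordinates or sequences are given and promoters were not analysed here.

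The main test was the quasi-likelihood F test of edgeR 4.0.16 in R 4.3.3, with TMM factors and the filter filterByExpr, which kept 21221 genes. A single fit took all 8 libraries and had 4 residual degrees of freedom. P-values were adjusted by Benjamini-Hochberg over all genes tested. The SE was derived from F, as the absolute log2 fold change over the root of F. It is approximate, and where a genotype has few counts it can be smaller than counting error alone. For IRT1 it was 0.197 with bzr1-1D and 0.167 without it, but 0.703 for the difference of these effects. The SE of large fold changes with a low level in 1 genotype is therefore not a measure of their precision. Where a gene had 0 counts, the 95% upper limit is 3 counts, or 0.0872 to 0.186 per M gene counts, for counting error only. The procedure was tested on simulated data.

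The comparison, the 25 gene lists and the rule for named genes were chosen with earlier results of these data known. Named first were the mutated genes. Among called genes with at least 10 CPM in the higher genotype and separate libraries, the 10 at each end of the fold changes followed. Of those called alike in pifq against Col-0, 10 each way were taken by the smaller absolute log2 fold change of the comparisons. That ranking thus used the pifq against Col-0 values as well. Last were the 8 at each end of the difference between the effects and, per list, the 5 members of smallest p. Genes were omitted for length, because they are not reported here, or because 3 counts or fewer in a genotype allow no fold. Outside the rule, and chosen after their values were seen, were HAT1, HAT2, HAT3, PRE1, CPD, DET2, DWF5, LHCB2.3, PIF7, EM6, SESA2, COBL9, EXPA18 and members called against their list's direction. Alternatives were RLE and upper-quartile factors, 2 other filters, DESeq2 1.42.0, a replicate block, each library left out, the 4 libraries alone, a minimum fold of 1.5 and chromosomes 2 to 4.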

Additional observations from a re-analysis of the deposited data

Results flagged for a closer look

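The results listed here are genes named in the report whose response to loss of the PIFs differed by 4-fold or more between the bzr1-1D and the wild-type background, with the interaction passing edgeR's quasi-likelihood test. Values are the log2 effect with bzr1-1D minus that without it, from 2 libraries per genotype. Among seed storage and late embryogenesis genes the differences were 8.83 for SESA5, 8.70 for CRU3, 6.27 for CRA1, 6.19 for M17 and 3.82 for EM6. Genes whose lowest level was in bzr1-1D had differences of 8.26 for AT1G20400, 8.08 for AT1G68250, 8.0 for AT1G20390, 7.16 for AT2G15650, 7.15 for AT5G56380, 6.87 for AT1G35115, 6.71 for AT1G50810 and 4.88 for AT1G23130. AT5G28145 had 8.48, and it was at 327 CPM in both Col-0 libraries and between 0.766 and 2.95 CPM in the 6 others.

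Below 0 were the growth genes GA3OX1 with -2.29, IAA19 with -2.39, BR6OX2 with -2.59, XTH18 with -2.78, XTH19 with -2.97 and LRX2 with -3.04. TT4 had -2.91, MYB75 -3.59 and KAT5, a thiolase of fatty acid degradation, -5.07. KAT5 was at 9.96 and 11.5 CPM in pifq and under 1 CPM in the 6 other libraries. Genes whose highest level was in bzr1-1D had -3.90 for AT4G12520, -3.99 for BGAL7, -4.71 for AT1G75900, -5.26 for AT5G59650, -5.29 for AT1G27570, -5.31 for AGP22, -6.83 for AT1G10110 and -8.79 for AT1G24370. Several of these genes had only a few counts in 1 genotype, so the size of their difference is less precise than its direction.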

How the results depend on the processing

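The number of genes called in pifq;bzr1-1D against bzr1-1D stayed within 1.5 times of 13873 under the alternatives run on the whole genome, except a minimum fold. On chromosomes 2 to 4 alone, which hold fewer genes, it was 6845 of 10641 (64.3%). It ranged from 11210 with DESeq2 (5580 higher, 5630 lower) to 14053 with no filter on low counts, was 13625 with the 4 libraries alone, and was 11941 to 14009 with single libraries left out. When edgeR's glmTreat tested for a difference over 1.5-fold, 4335 genes were called (1796 higher, 2539 lower), against 3665 in pifq against Col-0 (2095 higher, 1570 lower) and 2328 for the difference of the effects (1047 above 0, 1281 below). The cause there is the stricter test. DESeq2 called 3710 genes with a difference below 0 instead of 5717, and the cause was not tested. With a replicate block 13881 genes were called. The labels do not say that the replicate numbers mark a shared batch, and deviations of same-numbered libraries correlated by -0.02 to 0.03. These correlations rest on 1 deviation per genotype over all genes tested and cannot exclude a shared batch. No pairing was used in the main fit. No scaling moved the median of all genes by over 0.1 on the log2 scale. Of 162 called genes described in the text, 155 kept the call and the sign under all alternatives, other than the minimum fold and the chromosomes 2 to 4 alone, which were run for counts only. DWF1, PORB, SDD1, LEA4-5, NPR1, HSP90.1 and B1 (a carotenoid gene) lost it under 1 or more. Without single libraries the number of higher members became 3 instead of 5 among the helix-loop-helix genes and 5 instead of 3 in auxin response (both without pifq;bzr1-1D replicate 1), and 1 instead of 2 for ethylene (without bzr1-1D replicate 2 or pifq;bzr1-1D replicate 2). Lower members became 2 instead of 1 in the antenna (without pifq;bzr1-1D replicate 2) and, without pifq;bzr1-1D replicate 1, 1 instead of 2 in defence and 0 instead of 1 among carotenoid genes. Among the medians of the lists, that of the root markers changed sign, to 0, 0.752 and 0.074 without bzr1-1D replicate 1, without bzr1-1D replicate 2 and without pifq;bzr1-1D replicate 1, and it ranged from -0.294 to 0.752 with single libraries left out. The cause was not tested. With 2 libraries per genotype, leaving 1 out assumes that the lone library varies like those of the other genotypes. Depth limits genes under about 1 CPM most, since 3 counts are 0.0872 to 0.186 per M gene counts.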
